A study of Caenorhabditis elegans with 2 samples.

Results

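The lysosomal lipase family of Caenorhabditis elegans consists of the 8 genes lipl-1 to lipl-8, and their surroundings were read out of a ChIP-seq map of the transcription factor HLH-11. The members were taken by name, and all 8 were found among 19973 annotated protein-coding genes. HLH-11 belongs to the basic helix-loop-helix factors, which bind short E-boxes of the form CANNTG, and its mammalian counterpart is AP-4. Both samples were biological replicates of the same kind: strain OP396, with the allele unc-119(tm4063) on chromosome III and the transgene wgIs396, which makes HLH-11 fused to GFP and FLAG at the C-terminal end. The larvae were at the L4 stage, of mixed sex and 53 hours old, had been synchronised by starving the L1 larvae that hatch after bleaching, and were collected whole, so the tissue in which a site was occupied is not given. The antibody was directed at GFP. The transgene comes in addition to whatever the worm's own hlh-11 gene makes, and 1 transgenic line was used.

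Lipases of the lipl family are related to the acid lipase of mammalian lysosomes, which cuts stored lipid that has been delivered to the lysosome into fatty acids and sterol. In worms the family is best known from the intestine, the main fat store. When food is withdrawn several members are switched on by HLH-30, the relative of TFEB, and kept low in fed animals by MXL-3, a Max-like factor, and both factors recognise the E-box CACGTG. lipl-4 is known for long life and for a fatty-acid signal from lysosome to nucleus when it is overproduced.

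A peak was assigned to a gene when its summit, the base of highest signal, lay between 5000 bp upstream of the annotated start and the gene end. The signal of a peak is a height given by the authors, used here only to rank peaks within a list. There were 4 lists. A thresholded list of 7863 peaks, equal to the strongest 7863 of the pooled replicates, was used for the main counts, and lists of 30000 peaks, strong and background together, were used for the pooled replicates and for each replicate. Ranks count from 1 at the highest signal. No test was made, since the series has 1 group. The depth of sequencing is unknown, as peak lists carry no read counts.

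In the lipl windows 10 thresholded peaks were found, at 4 of the 8 genes: 4 at lipl-5, 3 at lipl-2, 2 at lipl-7 and 1 at lipl-4. Of all protein-coding genes 39.0% had such a peak in the same window, and 30.8% of those on chromosome V, where 7 of the 8 members lie, so the count of members is not far from that of genes at large. The 8 windows add up to 58.4 kb, with 0.171 thresholded summits per kb, against 0.0814 per kb over the windows of all protein-coding genes, in which a summit counts once for each gene whose window holds it. The members differed widely among themselves. lipl-2 had one of the highest signals of the genome within its window, lipl-1 and lipl-3 had peaks just below the threshold, and lipl-6 and lipl-8 had no peak in any list. All 10 peaks were intergenic and stood upstream of the start. Over the 13375 pairs of a protein-coding gene and a thresholded peak in its window, 57.2% were intergenic and 78.1% upstream. Of the 10 peaks 3 were closer to the start of the lipl gene than to any other protein-coding start, against 52.1% of those pairs. The windows are in compact gene neighbourhoods, each with 1 to 3 other protein-coding genes, and each of the 10 peaks also fell in the window of at least 1 other gene. The share of all thresholded peaks that fell in the windows of several genes was not computed, so such sharing is not read as particular to the lipl genes.

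**Figure D1:**
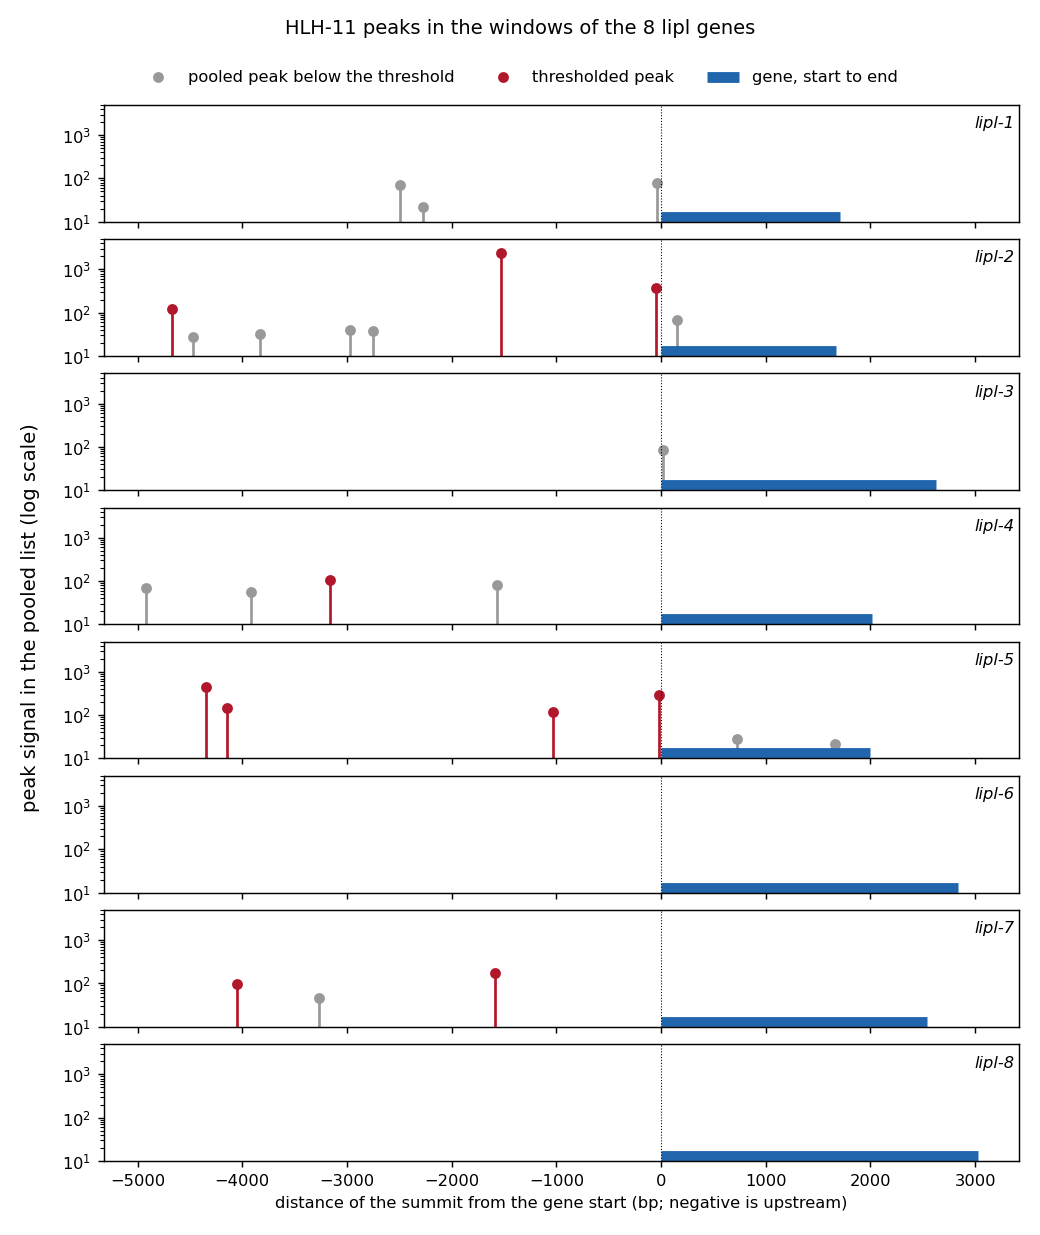
Pooled peaks in the 8 windows, with the distance of the summit from the gene start in bp on the x axis and the peak signal on a log y axis. Red points are thresholded peaks, grey points are pooled peaks below the threshold, and the blue bar is the gene. The peaks at lipl-2 reach 2382, while the lipl-6 and lipl-8 windows are empty.

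The sequences around the summits that carry these results are given on the strand of the lipl gene, in lower case, with E-boxes of the form CANNTG and the GATA sequences TGATAA and CTTATC, on either strand, in capitals. They were read from the WBcel235 genome, which is the build ce11 of the peak lists. Each piece was cut at the nearest base annotated as untranslated region on either side of the summit. Some pieces are thus shorter than the 101 bases searched, and the lipl-3 piece shows no base upstream of the start. The first set shows the pooled summits within 100 bp of a start, which 4 members had, at chrV:9791472-9791566, chrV:385675-385745, chrV:12919896-12919985 and chrV:524149-524213. At lipl-3 there was no E-box and no GATA sequence within 50 bp of the summit.
lipl-2 start: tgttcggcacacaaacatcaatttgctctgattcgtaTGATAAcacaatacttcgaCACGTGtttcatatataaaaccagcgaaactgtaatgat
lipl-5 start: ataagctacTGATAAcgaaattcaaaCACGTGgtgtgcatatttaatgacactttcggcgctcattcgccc
lipl-1 start: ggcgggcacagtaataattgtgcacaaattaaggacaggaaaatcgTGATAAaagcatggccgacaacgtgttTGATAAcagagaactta
lipl-3 start: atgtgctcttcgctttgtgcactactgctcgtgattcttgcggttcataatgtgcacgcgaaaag

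The second set shows the strongest peak of the family and the strongest distant peak of each other member with a thresholded peak in its window. These pieces lie at chrV:9789989-9790089, chrV:381348-381448, chrIV:10243362-10243462 and chrV:6546957-6547057.
lipl-2 upstream: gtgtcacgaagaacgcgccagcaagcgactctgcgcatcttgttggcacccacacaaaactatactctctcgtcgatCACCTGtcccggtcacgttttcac
lipl-5 upstream: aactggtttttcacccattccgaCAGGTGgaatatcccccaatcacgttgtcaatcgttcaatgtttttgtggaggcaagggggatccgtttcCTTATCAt
lipl-7 upstream: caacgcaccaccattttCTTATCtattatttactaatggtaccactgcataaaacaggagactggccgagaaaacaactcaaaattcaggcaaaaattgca
lipl-4 upstream: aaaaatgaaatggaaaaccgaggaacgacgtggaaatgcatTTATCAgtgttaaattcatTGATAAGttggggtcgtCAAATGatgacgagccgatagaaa

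lipl-2 (chromosome V, 9791567 to 9793241, plus strand) had the strongest signal of the family. Its highest peak, at V 9789788 to 9790275, had a pooled signal of 2382 and rank 8 of 7863. The signal was 989 in replicate 1, at rank 9, and 1401 in replicate 2, at rank 8, and the 2 replicate summits lay 5 and 1 bp from the pooled one. Each list sets its own scale, so the ranks, not the signals, are comparable, and by rank the replicates placed this peak alike. The summit stood 1528 bp upstream of lipl-2 but only 332 bp upstream of ztf-7, a gene named for its zinc fingers, which is transcribed away from lipl-2 from the other side of a gap of 1860 bp. By best peak in the window, lipl-2 shared the place of rank 8 with ztf-7 and F46B6.6, below pqn-41 (rank 7, signal 2589) and above puf-9 and dct-11 (both with the peak of rank 9, signal 2381).

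A second peak stood directly at the lipl-2 start. It ran from V 9791398 to 9791646, with the summit 45 bp upstream and no other protein-coding start nearer. The pooled signal was 370 at rank 1416, and the replicate signals were 179 at rank 1257 and 195 at rank 1570. Both replicates thus held it well inside the strongest 7863. The third peak, V 9786682 to 9787105, was weak, with a pooled signal of 118 at rank 6147 and replicate ranks of 6043 and 6860. Its summit lay 4673 bp upstream of lipl-2 and 26 bp upstream of F46B6.6. Of all protein-coding genes 6.30% had 3 or more thresholded summits in the window.

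lipl-5 (V, 385746 to 387740, plus strand), a lysosomal lipase gene with 4 annotated transcript starts, had the most peaks when overlapping peaks are counted singly. An overlapping pair is among its peaks, and with that pair merged lipl-5 is level with lipl-2. Of all protein-coding genes 2.67% had 4 or more, also without merging. The peak at the start, V 385594 to 385800, had its summit 21 bp upstream, with a pooled signal of 285 at rank 2133. Replicate 1 gave 128 at rank 2183 and replicate 2 gave 163 at rank 2066. The replicates were closer in rank here than at any other matched peak of the family, the larger rank being 1.06 times the smaller. A weaker peak 1034 bp upstream, V 384500 to 384923, had a signal of 116 and rank 6245. It ranked 4741 in replicate 1 and 8146 in replicate 2, which is past the strongest 7863 of that replicate. The summit of this weaker peak lay just past the end of the upstream gene ZK6.8, which ends 1058 bp before the lipl-5 start.

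The strongest lipl-5 peak was distant. It ran from V 381226 to 381552, with the summit 4348 bp upstream of lipl-5 and 510 bp upstream of ZK6.8, the next gene on the same strand. Its pooled signal was 448 at rank 1030, with 195 at rank 1058 in replicate 1 and 264 at rank 973 in replicate 2. An overlapping peak, V 381498 to 381603, had a signal of 149 at rank 4899. Replicate 1 had a summit 3 bp away at rank 7252, while the nearest summit of replicate 2 was 166 bp away, so this was the only one of the 10 peaks without a partner in both replicates within 100 bp.

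lipl-7 (IV, 10239278 to 10241823, minus strand) is the only member outside chromosome V. Its stronger peak, IV 10243320 to 10243525, had a pooled signal of 178 at rank 4010, with 85.8 at rank 3897 in replicate 1 and 92.5 at rank 4342 in replicate 2. The replicates gave similar ranks. The summit lay 1589 bp upstream of lipl-7 and 200 bp upstream of tkt-1, the gene for transketolase, an enzyme of the pentose phosphate pathway, which is transcribed away from lipl-7. The other peak, IV 10245666 to 10246089, was 4055 bp upstream of lipl-7 and 282 bp upstream of F01G10.10, with a signal of 99.3 at rank 7147. It ranked 10241 in replicate 1 and 6517 in replicate 2, so the strongest 7863 of replicate 1 did not include it.

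lipl-4 (V, 6550171 to 6552186, plus strand) had 1 thresholded peak, at V 6546795 to 6547218, with a pooled signal of 106 at rank 6774. Replicate 1 gave 52.9 at rank 6596 and replicate 2 gave 49.3 at rank 8204, and so only replicate 1 held it among its strongest 7863. The summit was 3164 bp upstream of lipl-4 and 507 bp upstream of dre-1, the gene for an F-box protein of developmental timing. Between this peak and the lipl-4 start lies K04A8.20, which ends 379 bp before lipl-4. A pooled peak 1566 bp upstream, at rank 8637 and a signal of 78.6, fell short of the threshold.

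lipl-1 and lipl-3, known as lipases induced by fasting, had no thresholded peak, but each had a pooled peak at its start with a signal just under the lowest thresholded signal of 88.3. The lipl-3 gene spans V 521595 to 524218 on the minus strand. Its peak had its summit in the coding exon, 19 bp downstream of the start, with a pooled signal of 82.9 at rank 8287. Replicate 1 gave 27.0 at rank 11679, with a summit 95 bp away, and replicate 2 gave 50.8 at rank 7971. The lipl-1 gene spans V 12919986 to 12921692 on the plus strand. The summit of its peak was 40 bp upstream, with a pooled signal of 78.0 at rank 8675, and the replicates gave 31.5 at rank 10250 and 44.7 at rank 9001. Neither peak was among the strongest 7863 of either replicate.

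Counting these, 4 members had a pooled summit within 100 bp of the start, namely lipl-1, lipl-2, lipl-3 and lipl-5, and 10.5% of all protein-coding genes had one. At lipl-2 and lipl-5 it was a thresholded summit, which 4.38% of all protein-coding genes had. The distance of 100 bp was chosen after the distances had been seen, so these shares describe the members and are no test. lipl-4, lipl-6, lipl-7 and lipl-8 had none within that distance.

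lipl-6 (V, 6931475 to 6934312, minus strand) and lipl-8 (V, 14745684 to 14748708, minus strand) had no summit in the thresholded, the pooled or either replicate list. Of all protein-coding genes 28.6% were likewise empty in all 4 lists. The nearest thresholded summits outside the window of lipl-8 were 24513 bp upstream of its start and 48665 bp past its end. For lipl-6 they were 59861 bp upstream and 961 bp past the end, the latter with a signal of 165 at rank 4367. Less is known of both genes than of lipl-1 to lipl-5.

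The edges of the window left out strong peaks at other members. A peak of signal 312 and rank 1853 had its summit 234 bp past the lipl-1 end, in intergenic sequence, 682 bp upstream of dhrs-4, a gene named as a short-chain dehydrogenase. A peak of signal 824 and rank 299 lay 7983 bp upstream of lipl-3, 58 bp upstream of nhr-58, a nuclear hormone receptor gene. Just inside the window, a pooled peak at rank 9729 stood 4924 bp upstream of lipl-4, in an intron of dre-1, and the next one outside any window on the upstream side was at 5157 bp from lipl-7, at rank 19300.

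In their whole lists, the replicates held the family's peaks about as often as other peaks. Of the 10 thresholded peaks 9 had a summit within 100 bp in the whole list of both replicates, against 95.5% of all 7863. For those 9 the larger replicate rank was 1.06 to 1.72 times the smaller, and the median over all matched peaks was 1.27. The 4 peaks of the highest pooled rank differed by 1.06 to 1.25 times. The other 5 had ratios of 1.11, 1.14, 1.24, 1.57 and 1.72. Over all matched peaks the median was 1.25 among the strongest 1965 and 1.30 among the weakest 3864. Of the 10 peaks, 9 were among the strongest 7863 of replicate 1 and 7 among those of replicate 2, against 87.3% and 89.4% of all thresholded peaks. By the strongest 7863 peaks of each replicate alone, replicate 1 gave 4 members, with 40.1% of all genes, and replicate 2 gave 3 members, without lipl-4, with 38.6%. The pooled list was made from both replicates, so part of this agreement is built in.

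**Figure D2:**
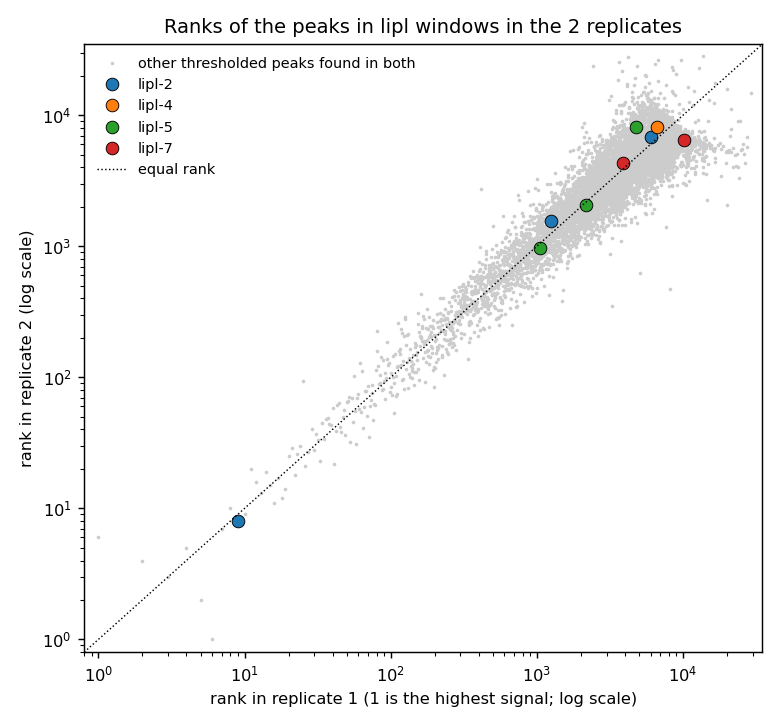
Rank in replicate 1 (x axis) against rank in replicate 2 (y axis), both on log scales, for the thresholded peaks with a summit within 100 bp in both replicates. Grey points are other peaks, coloured points are the 9 peaks in lipl windows, and the dotted line marks equal rank. The lipl-2 peak with ranks 9 and 8 stands alone at the lower left, and the points farthest from the line among the lipl peaks, with ratios of 1.72 and 1.57, are of lipl-5 and lipl-7.

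Within 50 bp of the summit, both strands searched, an E-box of the form CANNTG was found at 6 of the 10 thresholded peaks, against 44.1% of all 7863. The E-box CAGCTG, known for the AP-4 family, was at 0 of the 10, and at 4.34% of all peaks. CACGTG, which Myc, Max and HLH-30 are known to bind, was at 2, the start peaks of lipl-2 and lipl-5, against 5.84% of all peaks and 5.59% of the 858 thresholded peaks within 100 bp of a protein-coding start. CACCTG, singled out after the values were seen, was at 3, the strongest lipl-2 peak and both distant lipl-5 peaks that overlap, against 3.90% overall. The sixth E-box was CAAATG at lipl-4.

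GATA sequences, which are bound by the GATA factors of the intestine, stood at several of the same summits. TGATAA was at 4 of the 10 peaks (24.1% of all peaks) and CTTATC at 4 (17.0%), and they can overlap as TGATAAG, as they do at lipl-4. TGATAA or CTTATC was at 6 of the 10 peaks, against 28.2% of all thresholded peaks. At 2 peaks, the distant ones nearest to F46B6.6 and F01G10.10, there was neither an E-box nor a GATA sequence. The share of all thresholded peaks with neither was not computed, so this count has no background. Median GC content in the 101 bases was 39.6% at the lipl peaks and 43.6% at all thresholded peaks. A match of letters is not evidence of a site in use.

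The start peaks of lipl-2 and lipl-5 both had TGATAA and CACGTG, visible in the first set of sequences, and both had TGATAA more than once near the start. At lipl-2 a TGATAA began 58 bp upstream of the lipl-2 start and CACGTG began 39 bp upstream, with 13 bases between them, and a further TGATAA began 4 bp upstream, on the other side of CACGTG. At lipl-5 TGATAA began 62 bp upstream and CACGTG 45 bp upstream, with 11 bases between them, and a further one began 73 bp upstream, with 22 bases between. Each further copy is only partly inside the printed piece, and no common spacing is read from these pairs. Both sequences were present at 2 of the 10 lipl peaks and at 1.65% of all thresholded peaks. The joint presence was noticed in the data and is given as a description.

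Across the family, the 300 bases from 250 bp before the start to 50 after it held CACGTG at lipl-2 and lipl-5, 2 of 8 genes, against 5.82% of all protein-coding genes. These are also the 2 members with a thresholded summit at the start. Among all thresholded peaks within 100 bp of a protein-coding start, 5.59% had CACGTG within 50 bp of the summit. TGATAA was present at 7 of 8, all but lipl-7, against 30.2% of all genes, and it was thus present as well at lipl-4, lipl-6 and lipl-8, which had no summit there. At lipl-1 it began 44 and 17 bp upstream, and the only E-box in the window began 152 bp upstream. CAGCTG was at 0 of 8, against 5.55% of all genes.

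**Figure D3:**
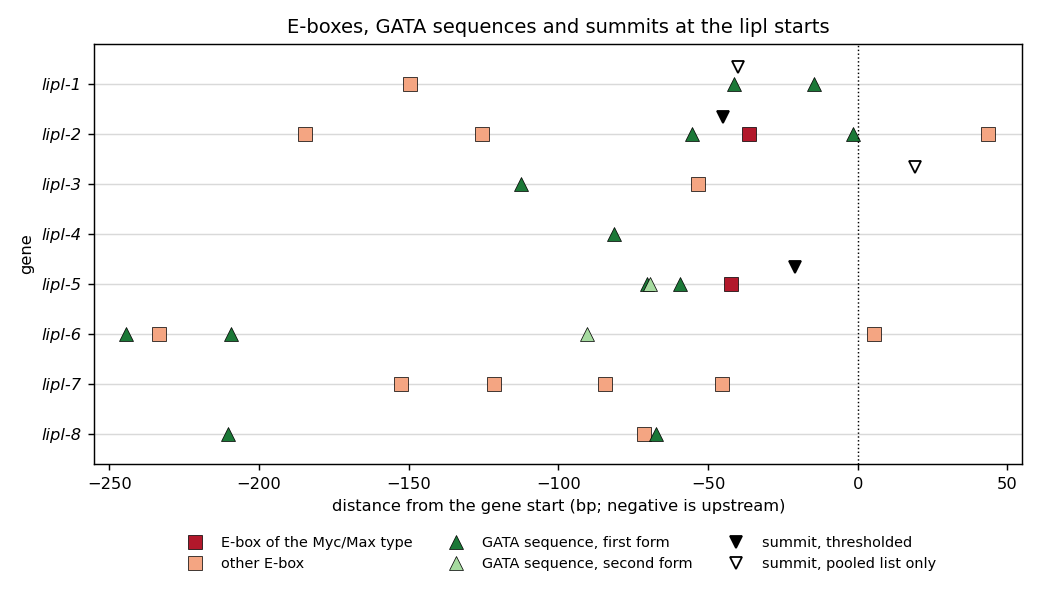
E-boxes, GATA sequences and pooled summits from 250 bp upstream to 50 bp downstream of the 8 starts, with the distance from the start in bp on the x axis and 1 row per gene. Squares are E-boxes (dark red CACGTG, light other E-boxes), triangles are GATA sequences (dark TGATAA, light CTTATC), and inverted triangles are summits, filled where thresholded. The dark red squares occur only at lipl-2 and lipl-5, the 2 rows with a filled summit.

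Genes tied to lysosomal fat use by other work gave a setting for the family. The list comprised 18 genes: regulators of lipl genes (hlh-30, mxl-3 and its Max-like relative mxl-2), nuclear receptors and their coactivator (nhr-49, nhr-80, nhr-62, mdt-15), lipid carriers (lbp-8, lbp-3), lysosomal membrane and sterol transport genes (lmp-1, cup-5, ncr-1, ncr-2), intestinal and foregut factors (elt-2, pha-4), the stress and longevity factors skn-1 and daf-16, and the cytosolic fat lipase atgl-1. By the same window 14 of the 18 (77.8%) had a thresholded peak, against 39.0% of all protein-coding genes. The list was chosen with earlier results of these data known, so this share describes the listed genes and is no test. The window includes the gene, and these genes were longer, with a median of 5112.5 bp against 2281 bp for the lipl genes and 2027 bp for all. How far gene length bears on this difference was not tested.

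hlh-30 and mxl-3, which switch lipl genes on and hold them down, both had a peak ranked above those at the lipl starts. By best peak in the same window, lipl-2 (rank 8) ranked above both and lipl-5 (rank 1030) below both. hlh-30, a gene of 20159 bp, had 11 thresholded peaks, the strongest with a signal of 801 at rank 313, 8814 bp downstream of its outermost start. mxl-3 had 6, the strongest with a signal of 600 at rank 595, 2906 bp upstream. Those ranks were 471 and 243 in replicates 1 and 2 for hlh-30, and 574 and 621 for mxl-3. nhr-49, which acts downstream of the lipl-4 signal, had its strongest peak 364 bp upstream at rank 527, and nhr-80, its partner there, 9 bp downstream at rank 2388. lbp-8, the carrier of that signal, had no thresholded peak, nor had mxl-2, cup-5 and ncr-2.

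elt-2, the main GATA factor of the intestine, had 4 thresholded peaks, the strongest 463 bp upstream at rank 663. atgl-1 had 5 in this window, led by the peak of rank 63 with a signal of 1419. No lipl peak but that between lipl-2 and ztf-7 ranked higher than this one.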

How the data were processed

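ChIP-seq peak lists came from 2 biological replicates of L4 larvae with HLH-11 tagged by GFP and FLAG; per the labels, chromatin was sonicated to 200 to 800 bp. Per the files accompanying the lists, peaks were derived from each replicate's alignment, or from both, and 1 further file, and the thresholded list from the other 3 by the irreproducible discovery rate. The aligner and the peak caller are not given in the sources used. The deposited signal values ranked peaks within a list. The deposited −log10 q values share a ceiling and were not used. Summits are start plus offset, written from base 1.

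Genes came from Ensembl release 115 (WBcel235), sequence from RefSeq. A gene's start is its outermost annotated one. Summits matched within 100 bp. Counting was done in Python 3.11.15 with pandas 2.3.3 and tested on simulated data. With whole animals and 1 group, no test was made. Members, lists and alternatives were chosen with earlier results of these data known. The text names the members, the nearest genes of their peaks, the 18 listed genes and those next in rank to the strongest peak. Neighbours of peaks outside the windows were named after their values were seen. Protein identity between members, which had been planned, was not analysed here.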

Additional observations from a re-analysis of the deposited data

How the results depend on the processing

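Members with a thresholded peak numbered 4. They numbered 2 (lipl-2 and lipl-5) with a window of 1000 bp upstream to 500 bp downstream, where 19.7% of all genes had a peak, 2 with each peak given to the nearest start (22.9%), and 2 with the strongest 3931 peaks (24.8% of all genes). With 2000 bp upstream to the gene end there were 3 (28.7%). The gene body left out (35.0%), the most downstream start (37.2%) and merged peaks (39.0%) gave 4. The 10 peaks in the windows became 9 with overlapping peaks merged and 5 with 2000 bp upstream. They became 2 with 1000 bp upstream to 500 bp downstream and 4 with the strongest 3931. A smaller window or a shorter list lowers such counts for any genes, and the matching peak counts over all genes were not computed. With 1 replicate left out, the members ranged from 3 to 4, the peaks from 7 to 10, and the listed pathway genes stayed at 14. The peaks with an E-box fell from 6 to 3 when 25 bp around the summit were searched, and were 7 with 150 bp, against 24.9% and 76.9% of all thresholded peaks. Peaks matched in both replicates ranged from 6, with the strongest 7863 of each replicate, to 10 at 200 bp. Taken singly, the strongest 7863 of replicates 1 and 2 matched 87.3% and 89.4% of all thresholded peaks. The share matched in both of these together, and the share at 200 bp, were not computed. Pathway genes were 10 to 14 of 18 under all their alternatives. They numbered 10 with 1000 bp upstream to 500 bp downstream (19.7% of all genes) and 13 with the strongest 3931 peaks (24.8%). The lists hold no read counts, so depth sets no interval here, and 2 replicates of 1 group give no spread between cultures for these counts.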

Other observations

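Some signal inside the lipl genes appeared in 1 replicate alone. In replicate 1 a summit with rank 7680 lay 1698 bp downstream of the lipl-4 start, in the annotated 3' UTR and at a tRNA gene that overlaps it, while neither replicate 2 nor the pooled list had a summit within the lipl-4 gene. This summit was inside the strongest 7863 of replicate 1. It is thus among the 10 peaks counted with replicate 2 left out, while the lipl-7 peak at rank 10241 is not. In replicate 1 a summit 704 bp downstream of the lipl-5 start ranked 9328, the pooled summit 18 bp from it, which was 57 bp upstream of an inner annotated start of lipl-5, ranked 22880, and replicate 2 had none within 100 bp. Of the 15 pooled peaks below the threshold in lipl windows, 7 had a partner within 100 bp in both replicates, against 34.4% of all 22137 pooled peaks below the threshold.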
